A study of Rattus norvegicus with 26 samples.

Results

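*Nkx2-5*, *Isl1*, *Tbx2*, *Tbx3*, *Tbx5*, *Tbx20*, *Hand1*, *Hand2* and *Mesp1* encode transcription factors of the early heart and the mesoderm it forms from. Their transcripts were followed here while rat multipotent adult progenitor cells (rMAPCs) were turned into smooth muscle cells (SMCs). The 9 genes were found by name in the array's own annotation, where they had 14 of the 41012 gene probes, and each was measured by its brightest probe, the one with the highest mean over the 26 arrays. A probe was tested where the scanner software had called it well above background throughout 1 group or more. This left 24442 probes, among them the brightest probes of *Nkx2-5*, *Isl1*, *Tbx2*, *Tbx3*, *Hand1* and *Hand2*, 6 of the 9 genes. *Nkx2-5* and *Isl1* passed only through Cl19 on d4 and d6 and *Hand2* only through primary SMCs, so that for these 3 genes passing already required a group with high values. *Tbx5*, *Tbx20* and *Mesp1* were not tested.

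The 2 rMAPC lines, Cl19 and 3c3, were Oct4-expressing clones from the bone marrow of female Fischer rats, with a labelled age of 3 weeks for Cl19 and of embryonic day 18 for 3c3. Each line was 1 clone, and no allele or transgene was named for either. RNA was taken before (d0) and 2, 4 and 6 days (d2, d4, d6) after the cells were moved to basal medium that held TGFβ and PDGF-BB. Each day of a line had 3 arrays, and d0 of the same line served as the control. Commercial aortic RNA, described as primary smooth muscle cell RNA in the study's design, was hybridised to 2 further arrays with no treatment or age given. The study's methods call the 3 arrays of a day biological replicates, but the labels did not say whether they came from separate cultures, so the p-values measure the spread between these arrays. In bulk RNA, fewer cells of a type and less RNA per cell cannot be told apart.

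Between 43.2% and 61.4% of gene features were well above background on an array. A slide carried d0, d2, d4 and d6 from a single replicate of a line, and each line and the primary SMCs were scanned on a day of their own, so that line, slide and scan day cannot be told apart when levels are compared between them. The array labelled Cl19 d2 replicate 1 lay closer to the 3c3 d2 arrays (root mean square difference of log2 levels 0.382 to 0.538) than to the other Cl19 d2 arrays (0.876 and 0.917). The slide of 3c3 replicate 3 had a higher background (negative controls at 28.3 to 44.5 intensity units, against 10.9 to 14.0 elsewhere). Where leaving out either changed a factor's call, the values with and without it are given beside the result. All 9 smooth muscle markers with a probe were well above background in primary SMCs, and their summed intensity rose from 4580 to 5430 on d0 to 111000 to 115000 on d6 in Cl19, and from 5720 to 7110 to 39800 to 71700 in 3c3, against 197000 to 199000 in primary SMCs. In Cl19 7 of them were higher on d6 than on d0 (limma, adjusted p below 0.05) and 2 did not pass this threshold. In 3c3 7 were higher, 1 was lower and 1 did not pass it. Of all tested genes, 25.9% were higher in Cl19 and 23.3% in 3c3. On d6 in 3c3, 6 markers were well above background on every array and 2 on none.

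The T-box factors bind DNA through a shared T domain, and some members activate transcription while others, *Tbx2* and *Tbx3* among them, mainly repress it. In the embryo *Mesp1* marks the earliest cardiac mesoderm, *Isl1* the progenitors of the second heart field, and *Nkx2-5* with *Tbx5*, *Tbx20*, *Hand1* and *Hand2* builds the chambers. *Tbx2* and *Tbx3* hold back the chamber programme. *Nkx2-5* is a homeodomain factor, *Isl1* a LIM-homeodomain factor, and *Hand1*, *Hand2* and *Mesp1* are basic helix-loop-helix (bHLH) factors that bind DNA together with a common partner.

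The array reads each gene through probes of 60 bases, whose letters are shown for the genes below that changed during differentiation and for the probes that share sequence. The probe positions follow rn4, the build in the array files, and no rn4 gene models were at hand to place them in exons or untranslated regions. The *Nkx2-5* probe lies at chr10:16608544-16608603 (plus strand) and the *Isl1* probe at chr2:48052237-48052296 (minus strand).
Nkx2-5: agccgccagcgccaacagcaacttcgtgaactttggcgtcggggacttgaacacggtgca
Isl1: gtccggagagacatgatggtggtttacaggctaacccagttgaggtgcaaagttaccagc
*Tbx2* had a pair of probes, the brightest at chr10:74092920-74092979 and the second at chr10:74092749-74092808 (plus strand), and *Tbx3* had 1, at chr12:38155551-38155610 (minus strand). The second *Tbx2* probe and the *Tbx3* probe share a run of 18 bases, in capitals below, that no other of the 41012 gene probes held.
Tbx2, second probe: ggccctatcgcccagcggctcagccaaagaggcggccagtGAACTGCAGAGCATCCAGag
Tbx3: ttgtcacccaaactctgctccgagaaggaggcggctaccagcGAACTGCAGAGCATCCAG
*Hand2* was also read by a pair, the brightest at chr16:36325824-36325883 and the second at chr16:36324395-36325850 (minus strand), a span longer than the probe. These overlap by 27 bases, in capitals.
Hand2, brightest probe: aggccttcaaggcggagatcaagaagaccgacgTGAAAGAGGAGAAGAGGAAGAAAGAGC
Hand2, second probe: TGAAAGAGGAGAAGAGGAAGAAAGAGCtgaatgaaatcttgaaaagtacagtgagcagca
The *Hand1* probes had no more than 5 bases in a row in common. The file placed the brightest at chr1:78144210-78144269 and the second at chr10:43423603-43423662 (minus strand), and RefSeq lists *Hand1* on chromosome 10, so the gene behind the brightest probe is uncertain.

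Of the 6 tested factors, 4 were called changed on d6 against d0 in Cl19 at an adjusted p below 0.05 (limma with Benjamini-Hochberg adjustment over all tested probes), where 52.2% of all tested probes were called. *Nkx2-5* and *Isl1* rose, and *Tbx3* and *Tbx2* fell. Because *Nkx2-5* and *Isl1* passed the filter only through Cl19 d4 and d6, the filter favoured their calls on these days. In 3c3, 3 were called on d6 (*Nkx2-5* up, *Tbx3* and *Hand1* down) against 48.2% of all probes, and without the slide of 3c3 replicate 3 only *Tbx3* was called, against 37.7%. On d4, 4 factors were called in Cl19 (the same ones as on d6) and 1, *Tbx3*, in 3c3, where 47.3% and 37.0% of all probes were called. On d2, *Nkx2-5* and *Tbx3* were called in Cl19 and *Tbx3* in 3c3, against 22.6% and 19.1% of all probes. Without the array labelled Cl19 d2 replicate 1, 4 factors were called in Cl19 on d2, against 24.9%. The values below are log2 normalized intensities, each given in the order of replicates 1, 2 and 3, and fold changes are between group means on that scale. Where any array of the dimmer group was not well above background, the fold is a bound, with each array of that group set to the lowest signal well above background on that array (1.52 to 4.20 on the log2 scale) unless its own value was higher, and with the brighter group's mean as measured.

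**Figure D1:**
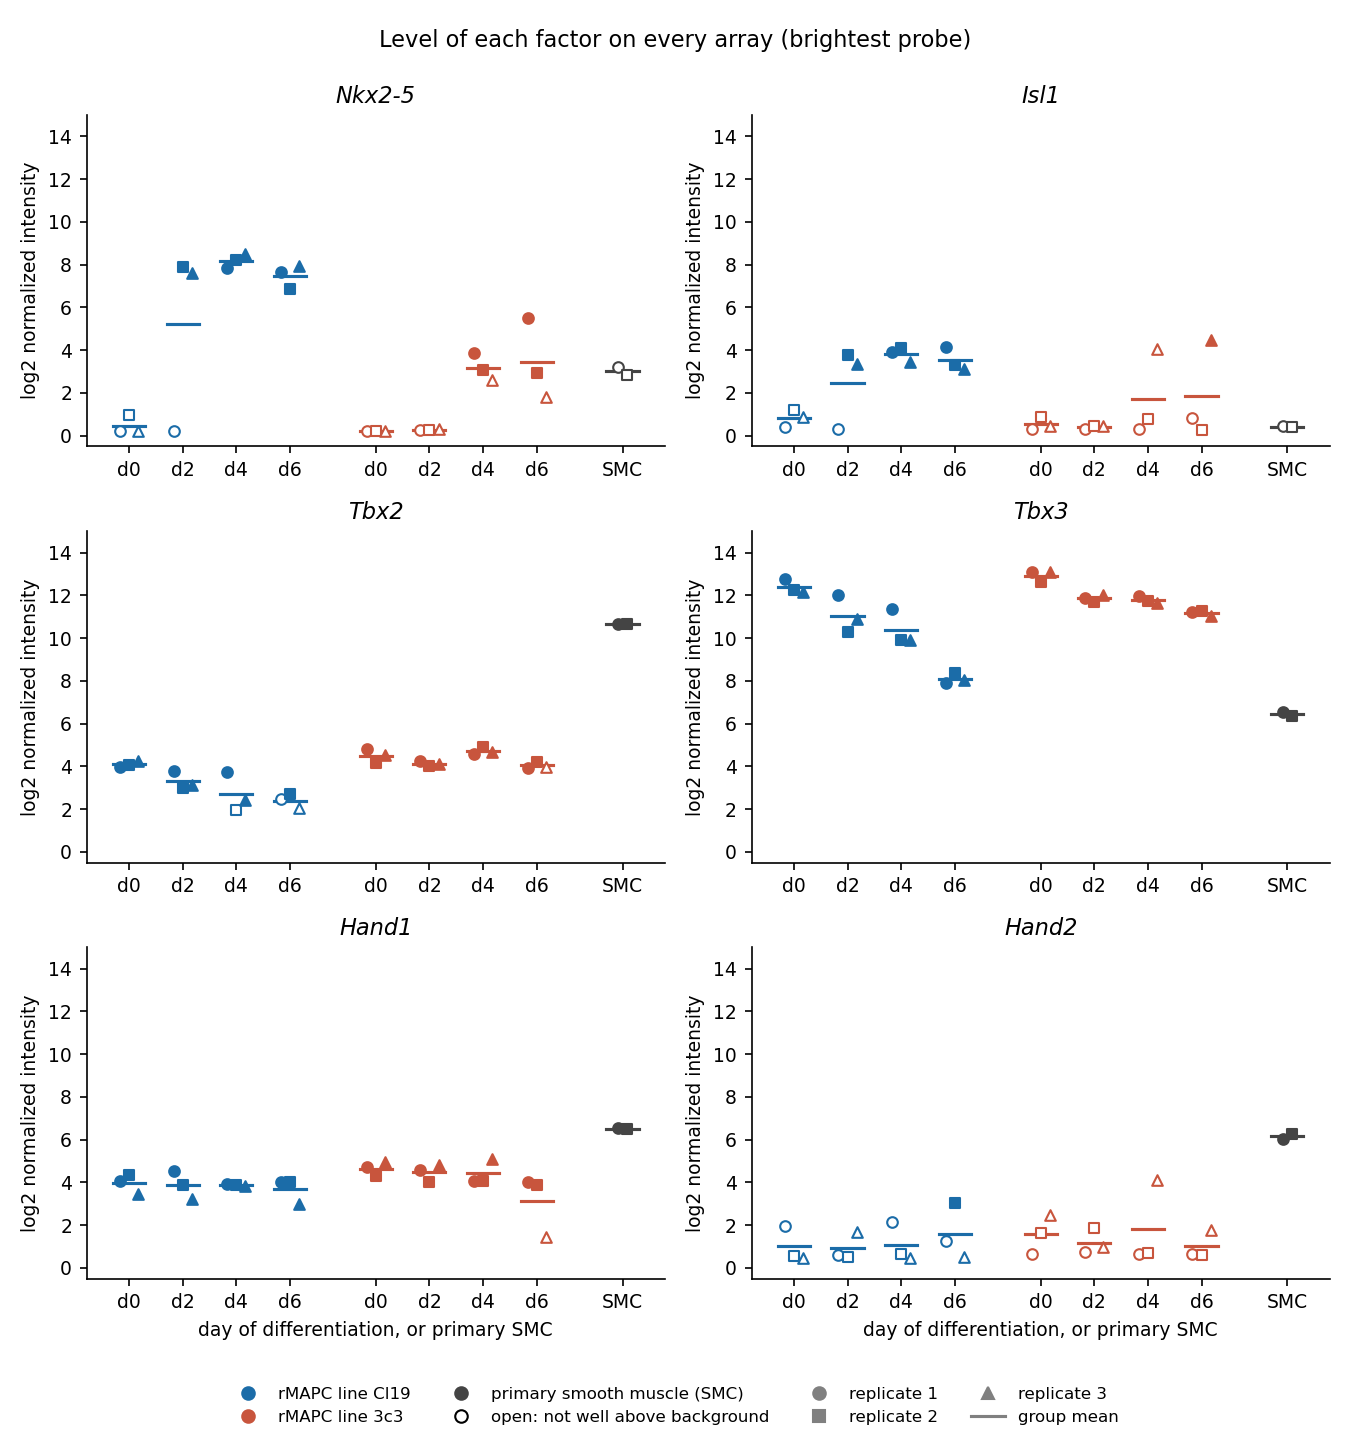
Log2 normalized intensity of the brightest probe of the 6 tested factors on each of the 26 arrays, by day for Cl19 and 3c3 and for primary smooth muscle (SMC), with symbols for replicates, open symbols for arrays not well above background and a line at each group mean. *Nkx2-5* stands between 6.84 and 8.51 on the Cl19 d4 and d6 arrays and at 5.50 or lower on all 3c3 arrays, *Tbx3* declines in both lines, and *Tbx2* is highest in primary SMCs.

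*Nkx2-5*, the homeodomain factor that is among the first markers of cardiac progenitors, went from below background to a clear signal in Cl19 and to a weak one in 3c3. In Cl19 its level was 0.22, 0.95 and 0.20 on d0, with none of the 3 arrays well above background. On d2 it was 0.24, 7.90 and 7.61, on d4 7.84, 8.23 and 8.51, and on d6 7.68, 6.84 and 7.95. The low d2 value belonged to the array that resembled the 3c3 d2 arrays, and the other 2 Cl19 d2 arrays were as high as those of d4 and d6. The rise in Cl19 was at least 57.1-fold on d4 (log2 change 7.74 ± 1.28, SE; adjusted p = 5.6e-05) and at least 35.0-fold on d6 (7.03 ± 1.28; adjusted p = 0.00011). All arrays of both days lay above those of d0, as for 23.4% of all tested probes on d4 and 25.7% on d6. With another background correction (normexp) the changes were 2.53 (adjusted p = 1.8e-05) and 2.00 (adjusted p = 0.00017). The size of the rise in Cl19 thus also depends on how dim signals are treated. On d2 the rise was at least 7.40-fold, with 2 of 3 arrays well above background and overlapping groups (4.79 ± 1.28; adjusted p = 0.0098). Without the low array the d2 change was 7.29 ± 0.66 (adjusted p = 1.4e-07), and without d2 replicate 2 or 3 it was 3.46 or 3.61 (adjusted p = 0.079 and 0.076).

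In 3c3 *Nkx2-5* stayed below background through d2, with values from 0.21 to 0.30 on the 6 arrays of d0 and d2. It was 3.85, 3.06 and 2.59 on d4 and 5.50, 2.95 and 1.83 on d6, with replicates 1 and 2 well above background on each day. Every d4 and d6 array of 3c3 lay above every d0 array and below every Cl19 array of the same day. Of all tested probes, 19.3% lay wholly above d0 in 3c3 on d4 and 22.3% on d6. No such share was counted for the separation from Cl19, whose d4 and d6 are the groups through which *Nkx2-5* passed the filter. The 3c3 change was 2.94 ± 1.28 on d4 (adjusted p = 0.078, and 0.042 with slide as a random effect; at least 1.41-fold) and 3.20 ± 1.28 on d6 (adjusted p = 0.045, at least 1.69-fold). The d6 call was lost in 10 of 18 alternatives, among them without any 1 of the d0 arrays (adjusted p = 0.087 to 0.088), without d6 replicate 1 (2.16; adjusted p = 0.21) or 2 (adjusted p = 0.066), and without the slide of replicate 3 (4.00 ± 1.66; adjusted p = 0.071). It was also lost with another background correction (0.39; adjusted p = 0.43) and with a floor under dim values (1.54; adjusted p = 0.19), so that the size of the rise in 3c3 depends on how dim signals are treated. Without the array labelled Cl19 d2 replicate 1, which widens the spread shared by all groups, it was far below the threshold (adjusted p = 0.00018), and so was that of d4 (adjusted p = 0.00067).

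The d6 change of *Nkx2-5* was larger in Cl19 by 3.83 ± 1.81, which did not pass the threshold in the fit of all arrays (adjusted p = 0.17) and passed without the array labelled Cl19 d2 replicate 1 (3.83 ± 0.83; adjusted p = 0.0024). Without the slide of 3c3 replicate 3 it was 3.04 ± 2.15 (adjusted p = 0.48). For the d2 change the difference was 4.74 ± 1.81 (adjusted p = 0.46), and 7.24 ± 0.88 without that array (adjusted p = 0.00013). In primary SMCs *Nkx2-5* was at 3.23 and 2.83, not well above background on either array. This was at least 13.2-fold below Cl19 d6 (−4.46 ± 1.43; adjusted p = 0.009, and 0.053 without primary replicate 2) and within the range of 3c3 d6 (−0.40 ± 1.43; adjusted p = 0.81).

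*Isl1*, the LIM-homeodomain factor of second heart field progenitors, had dimmer signals and the same groups of arrays on and off in Cl19. Its level there was 0.40, 1.19 and 0.87 on d0 and 0.32, 3.77 and 3.36 on d2, with the low value again on the array that stood apart. It was 3.92, 4.11 and 3.46 on d4 and 4.16, 3.32 and 3.12 on d6, well above background on all 6 of these arrays and on none of d0. The rise was at least 2.77-fold on d4 (3.01 ± 0.98; adjusted p = 0.016) and at least 2.26-fold on d6 (2.71 ± 0.98; adjusted p = 0.025). On d2 the change was 1.66 ± 0.98 (adjusted p = 0.25), and 2.75 without the low array (adjusted p = 0.044). The d6 call was lost with another background correction (0.21; adjusted p = 0.13), with a floor under dim values (1.17; adjusted p = 0.081), and without d0 replicate 1 or 3 or d6 replicate 1 (adjusted p = 0.053 to 0.083). The d4 call was lost with that background correction (0.24; adjusted p = 0.098) and without d0 replicate 1 (adjusted p = 0.051).

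In 3c3 *Isl1* was between 0.31 and 0.88 on the 6 arrays of d0 and d2. On d4 it was 0.32, 0.76 and 4.07 and on d6 0.82, 0.29 and 4.48, both high values being on the slide with the higher background, of which the d6 array alone was well above background. The d6 change was 1.31 ± 0.98 (adjusted p = 0.29), and −0.05 ± 0.76 without that slide (adjusted p = 0.97). The difference between the lines in the d6 change was 1.41 ± 1.38 (adjusted p = 0.61), and 2.76 ± 0.98 without that slide (adjusted p = 0.087). Primary SMCs gave 0.43 and 0.40, below every Cl19 d6 array (−3.12 ± 1.09; adjusted p = 0.015). No fold bound above 1 could be given, and the sign turned with a floor under dim values (0.24; adjusted p = 0.74).

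*Tbx3*, a repressor of the chamber programme that is also known for its part in pluripotent cells, was bright on d0 in both lines and was the one factor well above background on all 26 arrays. In Cl19 it went from 12.74, 12.26 and 12.17 on d0 to 12.00, 10.27 and 10.87 on d2, then to 11.36, 9.91 and 9.91 on d4 and 7.88, 8.36 and 8.04 on d6. In 3c3 it went from 13.09, 12.60 and 13.09 to 11.88, 11.69 and 12.01 on d2, 11.98, 11.75 and 11.65 on d4 and 11.22, 11.27 and 11.04 on d6. In both lines every later array lay below every d0 array, and on d6 every Cl19 array lay below every 3c3 array. Of all tested probes, 24.0%, 34.2% and 36.9% lay wholly below d0 on d2, d4 and d6 in Cl19. In 3c3 these shares were 24.2%, 28.8% and 32.7%. Such a share was not counted between the lines.

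The d6 fall of *Tbx3* was 19.7-fold in Cl19 (−4.30 ± 0.36; adjusted p = 9.1e-09) and 3.36-fold in 3c3 (−1.75 ± 0.36; adjusted p = 5e-04). Within slides it was −4.86, −3.90 and −4.13 in Cl19 and −1.87, −1.33 and −2.05 in 3c3. The fall was larger in Cl19 by 2.55 on the log2 scale (difference −2.55 ± 0.51; adjusted p = 0.0013), and over all alternatives this difference lay between −2.70 and −2.23 with an adjusted p of at most 0.01. *Tbx3* was the only factor of 6 called for this difference, where 17.4% of all probes were. Without the array labelled Cl19 d2 replicate 1, 3 factors were called (*Tbx3*, *Nkx2-5* and *Tbx2*), against 19.4%.

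Earlier falls of *Tbx3* were smaller. In Cl19 the change was −1.35 ± 0.36 on d2 (adjusted p = 0.01) and −2.00 ± 0.36 on d4 (adjusted p = 0.00014), and the d2 call was lost without d0 replicate 1 or d2 replicate 2 (adjusted p = 0.053 and 0.082). Without the array labelled Cl19 d2 replicate 1 it was −1.82 ± 0.33 (adjusted p = 0.00039). In 3c3 it was −1.07 ± 0.36 on d2 (adjusted p = 0.044) and −1.14 ± 0.36 on d4 (adjusted p = 0.018). The 3c3 d2 call was lost without any 1 of the d2 arrays or without d0 replicate 1 or 3 (adjusted p = 0.077 to 0.13), and that of d4 without d0 replicate 1 or 3 or d4 replicate 3 (adjusted p = 0.059 to 0.06). Without the slide of 3c3 replicate 3, the adjusted p was 0.2 on d2, 0.16 on d4 and 0.017 on d6. The d2 changes of the lines differed by −0.28 ± 0.51 (adjusted p = 1). For this difference limma called 0 of the 6 factors (1 at an unadjusted p below 0.05) and 0.323% of all probes, and without the array labelled Cl19 d2 replicate 1 it called *Nkx2-5* and 3.50% of all probes.

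In primary SMCs *Tbx3* was lower than in any rMAPC group, at 6.54 and 6.37. In each line the group mean was highest on d0 and lowest on d6, and that of primary SMCs was lower still. The arrays of d2 and d4 overlapped in both lines, and d4 was not tested against d2. The log2 difference of primary SMCs from Cl19 d6 was −1.64 ± 0.40 (adjusted p = 0.0012) and from 3c3 d6 −4.73 ± 0.40 (adjusted p = 2.7e-09).

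*Tbx2*, the closest relative of *Tbx3* and likewise a repressor, was dim in rMAPCs and bright in primary SMCs. Its brightest probe gave 3.99, 4.08 and 4.24 in Cl19 on d0 and 3.76, 2.98 and 3.14 on d2. It gave 3.72, 1.96 and 2.43 on d4 and 2.46, 2.69 and 2.05 on d6, of which replicates 1 and 3 on d4 and replicate 2 on d6 were well above background. All later Cl19 arrays lay below those of d0, as for 24.0%, 34.2% and 36.9% of all tested probes on d2, d4 and d6. The fall was at least 2.63-fold on d4 (−1.40 ± 0.31; adjusted p = 0.001) and at least 3.21-fold on d6 (−1.70 ± 0.31; adjusted p = 0.00012). On d2 it was −0.81 ± 0.31 (adjusted p = 0.069, 0.032 with slide as a random effect, and 0.028 without the array that stood apart). With normexp the Cl19 changes were −0.18 on d4 (adjusted p = 0.024) and −0.22 on d6 (adjusted p = 0.0074). The size of this fall thus depends on how dim signals are treated, and the bounds hold only for the main processing. With the methods' t-test the d4 call was lost (adjusted p = 0.11). In 3c3 the probe gave 4.83, 4.15 and 4.51 on d0, 4.25, 4.02 and 4.10 on d2, 4.59, 4.92 and 4.68 on d4 and 3.92, 4.22 and 3.99 on d6, with each later day overlapping d0 (d6 change −0.45 ± 0.31; adjusted p = 0.25). The d6 changes of the lines differed by −1.25 ± 0.44 (adjusted p = 0.056), and with slide as a block or without the array labelled Cl19 d2 replicate 1 the adjusted p was 0.044. With slide as a random effect it was 0.024. Without the slide of 3c3 replicate 3 the difference was −1.29 ± 0.55 (adjusted p = 0.17), and with another background correction −0.09 (adjusted p = 0.61).

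The second *Tbx2* probe did not show the fall. It gave 3.26, 3.01 and 3.42 in Cl19 on d0 and 3.10, 2.63 and 2.66 on d6 (−0.43 ± 0.34; adjusted p = 0.31), well above background on all 6 arrays. In 3c3 it gave 4.13, 3.31 and 2.98 on d0 and 2.84, 3.08 and 3.33 on d6 (−0.39 ± 0.34; adjusted p = 0.37), and the lines differed by −0.04 ± 0.48 (adjusted p = 0.98). The fall in Cl19 therefore rests on 1 of 2 probes. Both probes were far higher in primary SMCs. The brightest gave 10.64 and 10.67 there, at least 301-fold over Cl19 d6 (8.26 ± 0.35; adjusted p = 6.4e-14) and at least 93.2-fold over 3c3 d6 (6.61 ± 0.35; adjusted p = 1.8e-12). The second gave 9.28 and 9.32, a log2 difference of 6.50 ± 0.38 from Cl19 d6 (adjusted p = 1e-11) and of 6.22 ± 0.38 from 3c3 d6 (adjusted p = 1.9e-11, at least 60.7-fold).

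**Figure D2:**
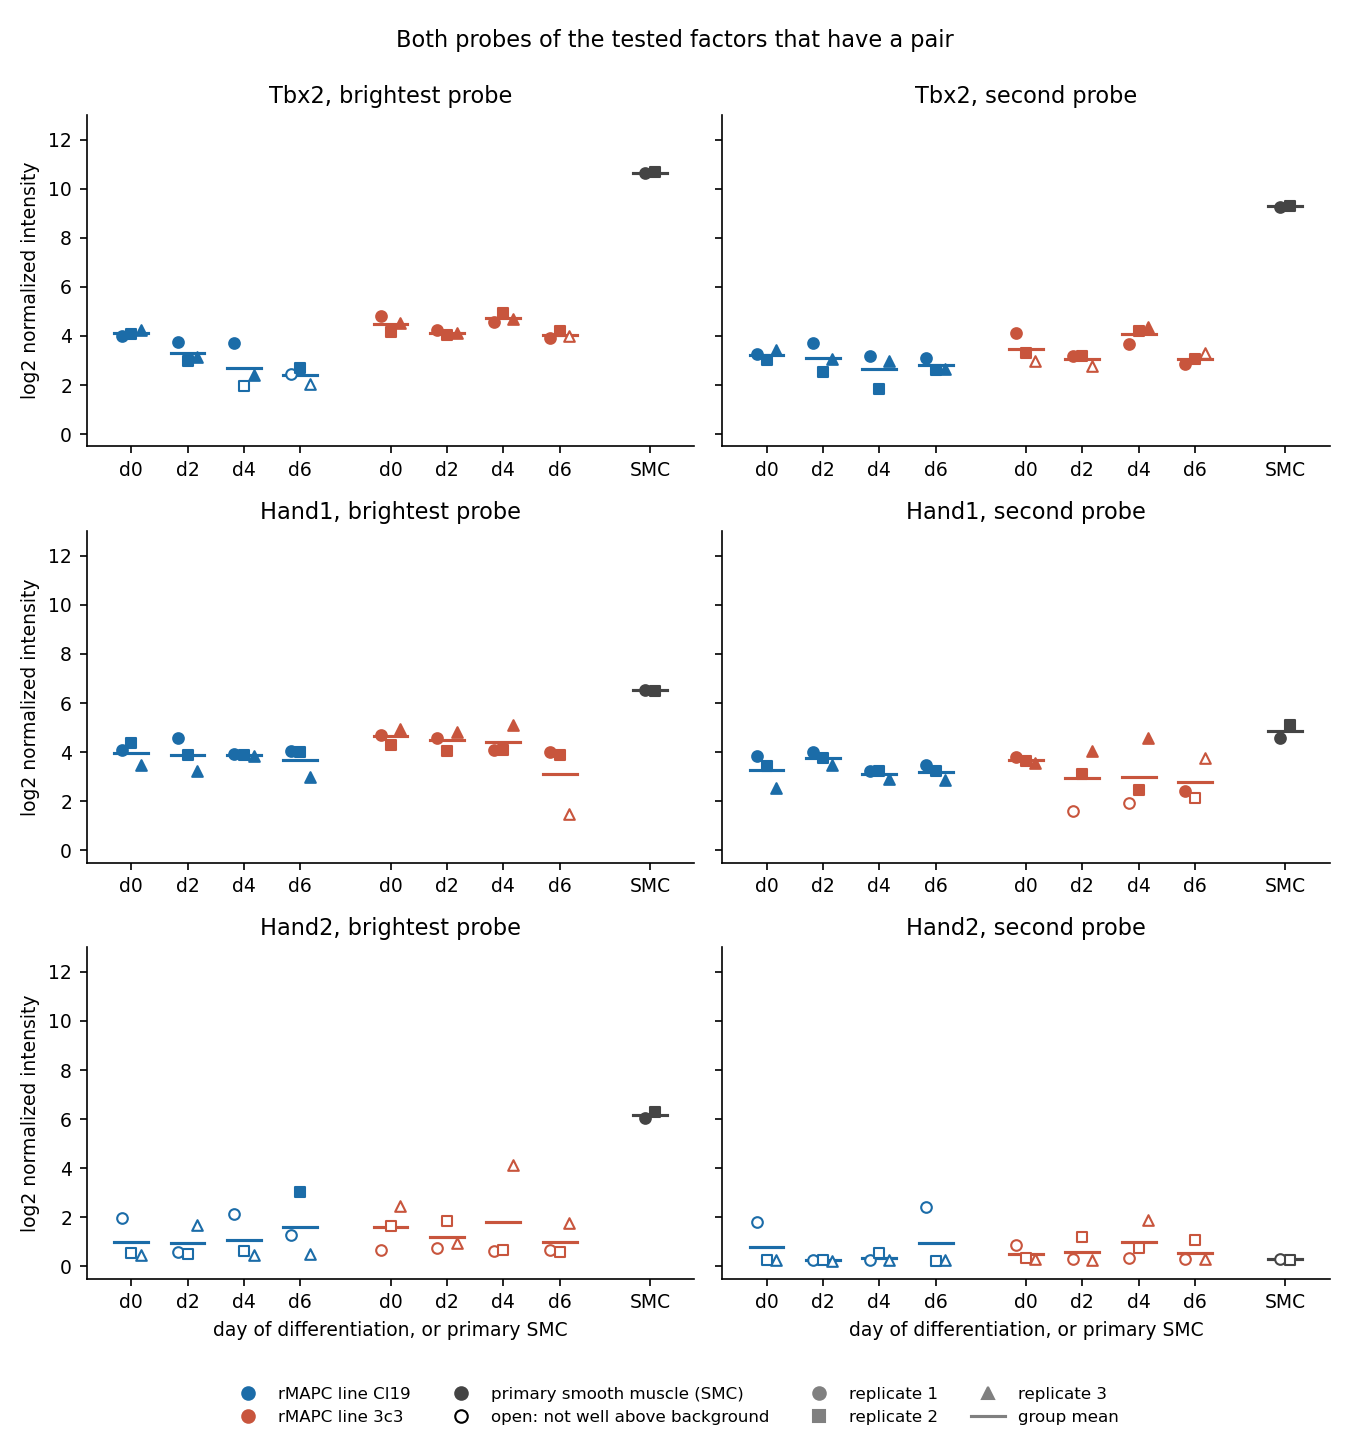
Log2 normalized intensity on each array for the brightest (left) and second (right) probe of *Tbx2*, *Hand1* and *Hand2*, with symbols as in the plot of levels by array. For both probes of *Tbx2* and *Hand1* the group mean is highest in primary SMCs, while *Hand2* shows signal there through its brightest probe (6.03 and 6.27) and not through its second (0.30 and 0.27).

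*Hand1*, a bHLH factor of the left ventricle and of extraembryonic mesoderm, showed no called change in Cl19. The brightest probe gave 4.09, 4.36 and 3.47 on d0, 4.55, 3.89 and 3.23 on d2, 3.94, 3.87 and 3.82 on d4 and 4.02, 4.01 and 2.99 on d6, with all days overlapping (d6 change −0.30 ± 0.51; adjusted p = 0.66). In 3c3 it gave 4.71, 4.29 and 4.95 on d0, 4.58, 4.03 and 4.83 on d2, 4.09, 4.08 and 5.11 on d4 and 4.00, 3.89 and 1.46 on d6. Only the last value was not well above background, and it lay on the slide with the higher background. The 3c3 change on d6 was −1.53 ± 0.51 (adjusted p = 0.018, at least 1.54-fold lower) and, without that slide, −0.56 (adjusted p = 0.3). The call was also lost without d0 replicate 3 (adjusted p = 0.063). With the second probe the d6 change in 3c3 was −0.89 ± 0.60 (adjusted p = 0.23).

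In primary SMCs the brightest *Hand1* probe gave 6.53 and 6.49, above all rMAPC arrays and 2.84 ± 0.57 over Cl19 d6 (adjusted p = 2e-04) and 3.39 ± 0.57 over 3c3 d6 (adjusted p = 2.7e-05, at least 5.59-fold). The second gave 4.59 and 5.09, or 1.66 ± 0.67 over Cl19 d6 (adjusted p = 0.033) and 2.07 ± 0.67 over 3c3 d6 (adjusted p = 0.0094, at least 3.81-fold). In the deposited log2 table, which was not normalized between arrays and in which the median of all probes was lower in primary SMCs by more than 2 on the log2 scale (−2.17 against Cl19 d6 and −2.09 against 3c3 d6), the brightest probe's differences were 0.43 (adjusted p = 0.44) and 0.92 (adjusted p = 0.098).

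*Hand2*, the relative of *Hand1* that acts in the right ventricle and in neural crest, was read above background in primary SMCs at 6.03 and 6.27 and on 1 of the 24 rMAPC arrays, Cl19 d6 replicate 2, at 3.02. The other Cl19 arrays ranged from 0.48 to 2.14 and the 3c3 arrays from 0.60 to 4.12, the highest of these being again on the slide with the higher background. No day differed from d0 in either line (d6 change 0.59 ± 0.80, adjusted p = 0.57, in Cl19 and −0.58 ± 0.80, adjusted p = 0.59, in 3c3). Primary SMCs were at least 13.2-fold over Cl19 d6 (4.56 ± 0.90; adjusted p = 0.00016) and at least 10.0-fold over 3c3 d6 (5.14 ± 0.90; adjusted p = 4.1e-05). In the deposited log2 table the difference from Cl19 d6 was 2.49 and no longer called (adjusted p = 0.05). The second probe, which overlaps the first by the 27 bases shown above, was not well above background on any array and gave 0.30 and 0.27 in primary SMCs, so the *Hand2* result rests on 1 probe.

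In all, 6 of 6 factors were called between primary SMCs and Cl19 d6 and 4 of 6 (*Tbx2*, *Tbx3*, *Hand1* and *Hand2*) between primary SMCs and 3c3 d6, where 71.4% and 71.5% of all probes were called. *Tbx2*, *Hand1* and *Hand2* were higher in primary SMCs than in both differentiated lines and *Tbx3* lower than in both. Before differentiation no factor passed the test between the lines. Of the 6, limma called 0 between Cl19 d0 and 3c3 d0 (0 at an unadjusted p below 0.05, and 0 by the methods' t-test), where 3.07% of all probes were called, and the largest difference in either direction was that of *Hand1* (−0.68 ± 0.51; adjusted p = 0.87).

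**Figure D3:**
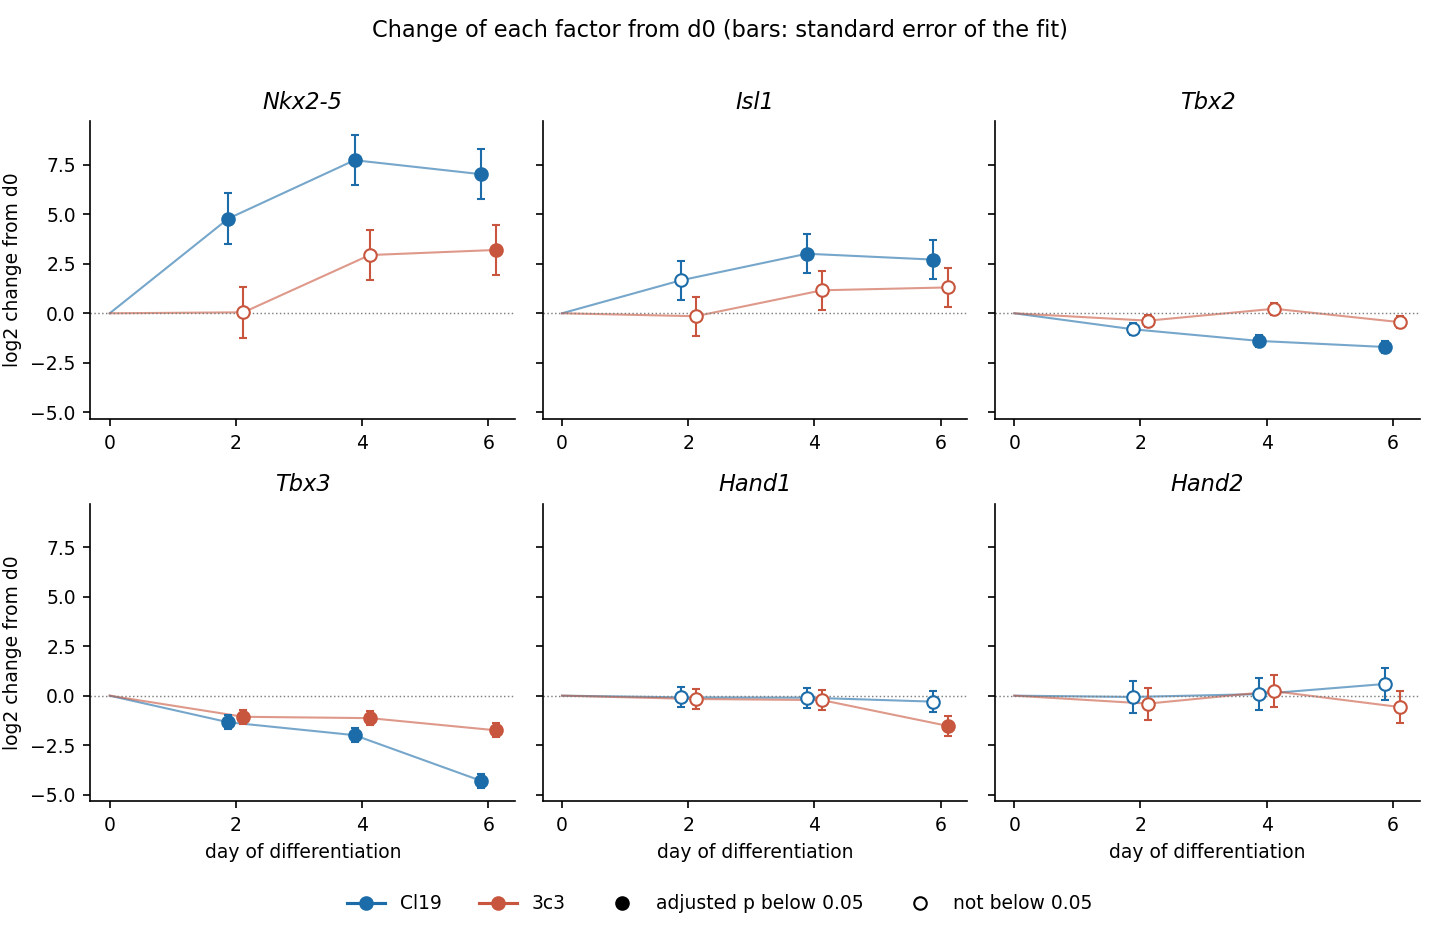
Change from d0 in log2 normalized intensity (limma, bars of 1 standard error) for each tested factor on d2, d4 and d6 in Cl19 and 3c3, with filled symbols where the adjusted p was below 0.05. *Nkx2-5* and *Isl1* rise in Cl19, and *Tbx3* falls in both lines, by 4.30 in Cl19 and 1.75 in 3c3 on d6.

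The remaining 3 factors gave no signal that could be tested. *Tbx20*, an activator and repressor of the chamber myocardium read by 1 probe (chr8:24367486-24369405, minus strand), ranged from 0.33 to 0.96 and was never well above background. *Tbx5*, the left ventricular and forelimb factor, had a pair of probes, of which the brightest (chr12:37957220-37969093) ranged from 0.49 to 3.09 with no array well above background and the second (chr12:37987879-37995935, both on the minus strand) was well above background on 1 array, Cl19 d4 replicate 3, at 2.00. *Mesp1* had a pair as well (chr1:135571783-135571842 and chr1:135572115-135572174, minus strand), of which the brightest was well above background on 1 array, Cl19 d0 replicate 3, at 2.54, and the second on none. A probe without signal does not show that the transcript was absent.

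Over the 26 arrays the levels of the tested factors fell into patterns that are given here as descriptions, since the arrays share lines, days and slides. *Nkx2-5* and *Isl1* passed the filter only through the same Cl19 groups. *Hand2* passed only through primary SMCs, where *Tbx2* and *Hand1* were highest too. The correlations among these genes, and with the genes most like them, therefore partly restate the filter and the level of that group. *Nkx2-5* and *Isl1* had a Pearson correlation of 0.74, *Tbx2* one of 0.79 with *Hand2* and of 0.74 with *Hand1*, and *Nkx2-5* one of −0.56 with *Tbx3*. Among 11914 other genes with a tested probe, the pattern most like that of *Nkx2-5* was shown by *Ccnjl* (r = 0.957), *Rgs8* (0.946), a regulator of G protein signalling, and *Runx1t1* (0.946), a transcriptional corepressor. *Tbx3* was followed most closely by *Rps6ka6* (0.983), a ribosomal S6 kinase, *Srsf12* (0.980) and *Spin4* (0.973). *Tbx2* was followed by *Bgn* (0.974), the matrix proteoglycan biglycan, *Mindy3* (0.968) and *Lrrc51* (0.966). The genes nearest to *Hand1* were *Pde1b* (0.904), *Nfic* (0.865) and *Slc6a11* (0.862), those nearest to *Hand2* were *Syt12* (0.913), *Prrx1* (0.905), a mesenchymal homeobox factor, and *Col8a1* (0.900), a collagen of vessel walls, and those nearest to *Isl1* were *Actg1* (0.837), *Emb* (0.835) and *Casr* (0.828).

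The genes that act with these factors are given next by lists, on d6 against d0. With 1 brightest probe for each of 11931 genes, 25.9% of genes were called higher and 31.4% lower in Cl19 (median change −0.14), and 23.3% were called higher and 29.6% lower in 3c3 (median −0.12). Of 13 other T-box genes 4 were tested. In Cl19 2 of them rose and none fell (median 1.06), and in 3c3 1 rose and 1 fell (median 0.69). *Eomes*, the T-box factor of mesendoderm, rose in both lines (3.22, adjusted p = 0.00017, and 2.92, adjusted p = 0.00055). The changes of *Tbx1*, a factor of the pharyngeal arches and outflow tract, were −0.34 in Cl19 (adjusted p = 0.45) and −2.99 in 3c3 (adjusted p = 1.5e-06), and the difference between them was 2.64 (adjusted p = 0.00088). On d6 in 3c3 *Tbx1* was well above background on 0 of 3 arrays (mean 0.21). With a floor under dim values its change there was −0.37 (adjusted p = 0.62) and the difference 0.13 (adjusted p = 0.95). The probe of *T* (brachyury), the general mesoderm factor, was not well above background on any array.

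Of 17 genes for factors that act with *Nkx2-5* and the T-box proteins on cardiac promoters, 14 were tested. In Cl19 6 were higher, 3 lower and 5 not past the threshold (median 0.59), and in 3c3 3 were higher, 2 lower and 9 not past it (median 0.02). *Smarcd3*, which encodes the chromatin remodelling subunit Baf60c, rose by 6.13 in Cl19 and 5.27 in 3c3, and *Foxh1*, a partner of SMAD proteins, by 5.62 and 2.46 (adjusted p of at most 0.00019 for both genes in both lines). *Gata6*, shared by endoderm and heart, fell in both lines (log2 changes of −3.31 and −1.47; adjusted p = 1e-08 and 0.00024). All 9 genes for bHLH partners and inhibitors of the HAND proteins were tested. In Cl19 3 were higher and 1 lower (median 0.40), and in 3c3 2 were higher and 2 lower (median −0.37). *Tcf4*, a common partner, rose by 2.48 and 2.00 (adjusted p = 3.1e-07 and 7.1e-06). *Id4*, an inhibitor that binds such partners, had log2 changes of −5.11 in Cl19 (adjusted p = 2.2e-07) and −1.57 in 3c3 (adjusted p = 0.023, and 0.08 without the slide of 3c3 replicate 3).

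Genes of the steps before cardiac commitment moved as follows. Of 13 early mesoderm genes 8 were tested. Cl19 had 5 of them higher and 2 lower (median 3.35), whereas in 3c3 the numbers were 3 and 1 (median 1.35). *Lhx1*, a LIM-homeodomain factor of early mesoderm, rose by 5.71 in Cl19 (adjusted p = 3.1e-06) and, from below background, at least 59.2-fold, in 3c3 (adjusted p = 7e-07). *Mixl1*, a mesendoderm homeobox factor, rose from below background at least 101-fold in Cl19 (adjusted p = 7.3e-06) and at least 4.80-fold in 3c3 (adjusted p = 0.0061, and 0.089 with another background correction). *Pdgfra*, a receptor for PDGF on mesoderm, fell in both lines (−1.93, adjusted p = 6.1e-09, and −1.77, adjusted p = 3.5e-08). Of 18 genes for ligands and inhibitors that induce or limit heart mesoderm 12 were tested. Cl19 had 8 of them higher and 1 lower (median 2.12), whereas in 3c3 the numbers were 6 and 1 (median 0.70). *Fgf8* rose by 6.16 and 5.87, *Nodal* by 5.80 and 4.23 and *Bmp4* by 5.60 and 4.38 (adjusted p of at most 1.2e-06 for all 3 in both lines). *Bmp6*, chosen after its values were seen, went opposite ways (−1.74, adjusted p = 0.0046, in Cl19, and 2.41, adjusted p = 0.00035, in 3c3), and the difference was −4.15 (adjusted p = 2e-04).

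**Figure D4:**
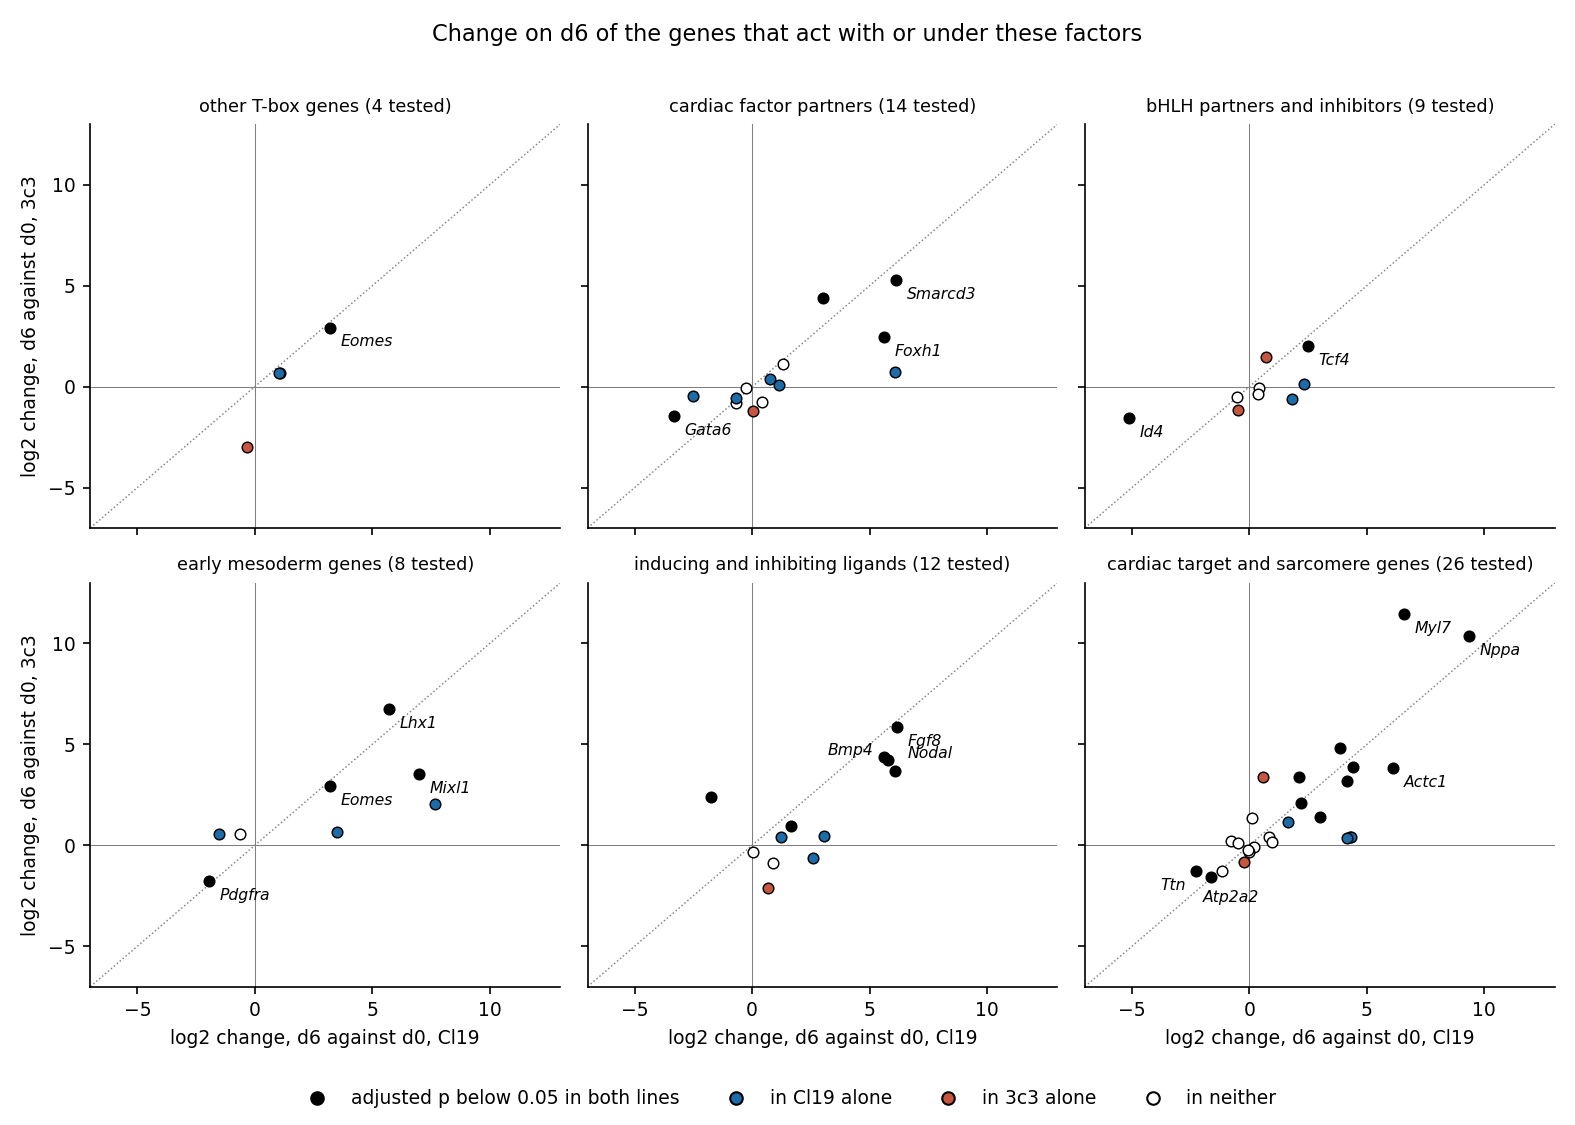
Log2 change on d6 against d0 in Cl19 (horizontal) and 3c3 (vertical) for the tested genes of 6 lists, filled black where the adjusted p was below 0.05 in both lines, in the colour of a line where in that line alone, and open where in neither, with a dotted line of equal change. *Nppa* (9.34 and 10.37) and *Myl7* (6.57 and 11.47) lie farthest to the upper right among the cardiac target and sarcomere genes.

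Of 27 cardiac target and sarcomere genes 26 were tested. In Cl19 13 were higher, 2 lower and 11 not past the threshold (median 1.30), and in 3c3 10 were higher, 3 lower and 13 not past it (median 0.42). *Nppa*, the atrial natriuretic peptide gene that Nkx2-5 and Tbx5 are known to activate and Tbx2 and Tbx3 to repress, rose from below background at least 232-fold in Cl19 (adjusted p = 7.4e-10) and at least 338-fold in 3c3 (adjusted p = 3.4e-10). *Myl7*, the atrial myosin light chain, rose by 6.57 in Cl19 (adjusted p = 2.2e-10) and at least 1551-fold in 3c3 (adjusted p = 5.6e-13), where 1 of the 3 d0 arrays was well above background. *Actc1*, the cardiac actin, had a rise of 6.13 in Cl19 (adjusted p = 0.00033) and of at least 13.9-fold in 3c3 (adjusted p = 0.015), a call lost with another background correction (adjusted p = 0.067) and without the slide of 3c3 replicate 3 (adjusted p = 0.11). *Atp2a2*, the calcium pump of the sarcoplasmic reticulum, fell in both lines (log2 changes of −1.64 and −1.55; adjusted p = 3.7e-07 and 1.2e-06). *Ttn*, the giant sarcomere protein, was called lower in both lines (−2.28 and −1.27) but was not well above background on d6 in Cl19 or on either day in 3c3, and neither call was kept with a floor under dim values (−0.96, adjusted p = 0.11, and 0.16, adjusted p = 0.84). In primary SMCs 15 of the 26 genes were lower and 7 higher than in Cl19 d6, and the same numbers held against 3c3 d6. Of all tested probes, 38.6% were lower and 32.8% higher in primary SMCs against Cl19 d6, and 38.1% and 33.4% against 3c3 d6. With a floor under dim values, the medians over Cl19 and 3c3 on d6 were 0.40 and 0.46 for the other T-box genes, 0.26 and 0.19 for the partner factors and 1.30 and 0.58 for the cardiac target and sarcomere genes, and those of the bHLH, early mesoderm and ligand lists were as given above.

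Markers of other cell types moved on the same arrays, and their part in these results was not tested. The 6 markers of undifferentiated rMAPCs fell in 5 cases and rose in 1 in Cl19 on d6, and in 3c3 the numbers were 4 and 1. Among them *Pou5f1*, which encodes Oct4, fell at least 292-fold in Cl19, where 1 of 3 d6 arrays was well above background, and by 4.11 on the log2 scale in 3c3 (log2 change −4.11; adjusted p = 0.00015). The 7 cardiomyocyte markers rose in 3 cases in Cl19, with none lower (median change 0.20), and in 3 cases in 3c3, with 1 lower (median 0.19). Without the slide of 3c3 replicate 3, 2 were higher and none lower in 3c3. The lower call was also lost with normexp, with the floor and in the deposited log2 table. The summed intensity of these markers went from 1130 to 1240 to 5350 to 14200 in Cl19 and from 475 to 675 to 8850 to 15800 in 3c3, against 286 to 314 in primary SMCs. The 5 epithelial markers were well above background on every rMAPC array and higher on d6 in both lines (sums of 134000 to 147000 on d0 and 229000 to 276000 on d6 over both lines). With 75th percentile scaling, 3 of the 5 were called higher in Cl19 and 4 in 3c3. Of 5 fibroblast markers Cl19 had 4 higher and 1 lower and 3c3 had 1 of each, and of 4 tested blood markers 1 was higher in Cl19 and 2 in 3c3. Of 5 endothelial markers none were higher and 2 were lower in Cl19 and 1 in 3c3.

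The promoter of *Nkx2-5*, the factor with the largest rise, is shown because the transcript went from background to a clear signal in Cl19. RefSeq's GRCr8 sequence of the 250 bases before its start (chr10:16848350-16848599, plus strand) reads as follows, with the match to a searched motif in capitals.
Nkx2-5 promoter: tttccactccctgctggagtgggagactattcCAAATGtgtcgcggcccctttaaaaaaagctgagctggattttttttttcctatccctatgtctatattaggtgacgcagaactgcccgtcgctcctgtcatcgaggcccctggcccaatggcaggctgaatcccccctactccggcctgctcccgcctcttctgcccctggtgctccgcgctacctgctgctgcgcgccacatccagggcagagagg
The match is an E-box (CANNTG, the letters bHLH proteins bind), 218 bases before the start, and 65.5% of 33469 RefSeq rat promoters of this length hold one on either strand. The other motifs searched on both strands were CAGAC (a SMAD half-site, in 42.9% of promoters), GATAA (GATA factors, 23.5%), CAAGTG (NK2 homeodomain, 11.7%, which is itself an E-box), AGGTGTNA (a T-box half-site, 2.6%) and TATAA (24.0%), and none was found in this window. Of the 6 tested factors 4 had a promoter entry, and *Tbx2* and *Tbx3* had none. *Hand2* held 1 GATAA match, 1 CAAGTG match and 2 E-boxes, *Isl1* 1 GATAA match and 1 E-box, and *Hand1* 3 TATAA matches. Such matches describe the letters of these windows only.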

How the data were processed

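RNA from 26 samples was labelled with Cy3 and hybridised to Agilent whole rat genome arrays. The deposited intensity files hold the processed signal that the authors' scanner software (Agilent Feature Extraction 10.1.1.1, per the file headers, with rn4 annotation) made by subtracting background. The deposited series table holds log2 values that equal the log2 of that signal, with no normalization between arrays. Following the study's methods, quantile normalization was applied to the log2 signals of 43379 gene features and features of a probe were averaged (41012 probes). Features the scanner software marked as outliers were left out here. Of these, 24442 were kept, those well above background throughout 1 or more of 9 groups, and entered 1 limma fit (limma 3.58.1, R 4.3.3) with 11 contrasts and Benjamini-Hochberg adjustment at 0.05. The fit was tested on simulated data. Gene lists and the motif search used Python 3.11.15.

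The 9 factors and all gene lists were chosen with earlier results of these data known. The text names every factor, the 3 genes most like each tested factor in Pearson correlation, and from each list up to 3 rising and 3 falling genes past the threshold in both lines (a choice from these for the marker lists), and 1 gene that this rule names is not reported here. Names of probes came from RefSeq's rat tables (GRCr8, no coordinates used for probes), matched for 16336 by accession, 555 by gene number, 3731 by gene name and 1107 by synonym, and 19283 stayed unnamed. The number of arrays limits the precision. Alternatives were 75th percentile scaling, normexp background correction (offset 50), the deposited log2 table, no filter, a floor under dim values, the mean over a gene's probes, slide as a fixed or random block, only the groups compared, the methods' t-test, and leaving out arrays.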

Additional observations from a re-analysis of the deposited data

Results flagged for a closer look

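The d6 change of *Tbx3* differed between the lines. It fell in both, and by more in Cl19 than in 3c3, with a difference of −2.55 ± 0.51 on the log2 scale (limma contrast of the 2 changes, adjusted p = 0.0013), the same sign on all 3 slides of each line, and no overlap between the changes within slides of Cl19 (−4.86 to −3.90) and of 3c3 (−2.05 to −1.33). The signs and the separation come from the same arrays that gave the call, and are no further support for it. Each line was 1 clone with slides and a scan day of its own, and these cannot be told apart. The cause of the difference was not tested.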

How the results depend on the processing

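Of 1218 values for the 6 factors under the alternatives, 1141 stayed on their side of the threshold, 55 lost the call, 21 gained it and 1 called value turned. Of the 1141, 62 that were called under neither setting changed sign (lowest adjusted p 0.23). The called value that turned was *Isl1* between primary SMCs and Cl19 d6, at 0.24 with the floor under dim values (adjusted p = 0.74). The counts of factors and probes called moved by more than 1.5 times as follows, and where no value or construction shows why, the cause was not tested. With normexp, 3c3 d6 went from 3 factors to 1, the difference between the lines on d6 from 1 to 2, and that on d2 from 79 probes to 141. With the deposited log2 table, and with no filter, 3c3 d2 went from 1 factor to 0. With the floor, 3c3 d6 went from 3 to 1 and the d6 difference from 1 to 2. With the replicate block (slide), 3c3 d2 went from 4662 probes to 6996, the d6 difference from 1 factor to 2 and the d2 difference to 139 probes. With slide as a random effect (correlation within slides 0.309), 3c3 d4 went from 1 factor to 2, the d6 difference to 2 and the d2 difference to 263 probes. With only the groups compared, Cl19 d2 went from 2 factors to 0, 3c3 d4 to 2, the d6 difference to 3, the d2 difference to 138 probes, and d0 against d0 from 751 probes to 1447. With the methods' t-test, Cl19 d2 went from 5534 probes to 3214 and from 2 factors to 0, 3c3 d4 from 9037 to 4809 probes and from 1 factor to 2, and 3c3 d6 from 3 to 1. Without the array labelled Cl19 d2 replicate 1, Cl19 d2 went to 4 factors, 3c3 d4 to 2, the d6 difference to 3 and the d2 difference to 856 probes and 1 factor. Without the slide of 3c3 replicate 3, chosen after seeing the data, 3c3 d2 went to 2283 probes and 0 factors, 3c3 d4 to 5487 and 0, 3c3 d6 to 1 factor, the d6 difference from 4263 to 2728 probes, the d2 difference to 7, and d0 against d0 to 327. Leaving out 1 array at a time, where counts of probes moved by less than 1.5 times too, gave 3229 to 4978 probes for 3c3 d2, 7182 to 9309 for 3c3 d4, 3510 to 4731 for the d6 difference, and 389 to 1012 for d0 against d0. It gave 0 to 4 factors for Cl19 d2, 0 to 1 for 3c3 d2, 0 to 2 for 3c3 d4, 1 to 3 for 3c3 d6, 1 to 3 for the d6 difference and 8 to 856 probes and 0 to 1 factors for the d2 difference. The lone primary SMC array was then assumed to vary like the other groups.

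The replicate number of a line marks its slide. Same-numbered arrays deviated together (correlation over 0.1) in 18 of 18 pairs in 3c3 and 16 of 18 in Cl19 (lowest 0.061), and the fixed block changed the call of 1 factor, *Tbx2* for the d6 difference (adjusted p = 0.044). With slide as a random effect that call also changed (adjusted p = 0.024), as did those of *Tbx2* in Cl19 on d2 (adjusted p = 0.032) and *Nkx2-5* in 3c3 on d4 (adjusted p = 0.042). The block could not give comparisons between slides, and the t-test not the differences between lines. In the deposited log2 table, 55.7% of the calls were higher in Cl19 d6, 56.4% in 3c3 d6, 8.3% and 9.5% in primary SMCs against Cl19 and 3c3 d6 (42.1%, 40.7%, 45.9% and 46.7% after quantile normalization), with medians over all probes of 0.10, 0.09, −2.17 and −2.09 (against −0.20, −0.21, −0.13 and −0.13). Signals near background limit *Nkx2-5* in 3c3 and the size of its rise in Cl19, *Isl1*, *Tbx2* on d4 and d6 in Cl19 and *Hand2*.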
